A study of Chlamydomonas reinhardtii with 28 samples.

Results

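Gene identifiers of *Chlamydomonas reinhardtii*, a unicellular green alga, carry a number, and those numbered 800000 and above are loci that entered the catalogue with the v6 annotation of the nuclear genome. They were chosen here by that number alone. Of 17611 ids in the table of RNA levels, 2195 (12.5%) were such new loci and 15416 were older ids. Only 40 new loci (1.82%) carried a gene symbol, against 4286 older ids (27.8%), so most of what follows concerns genes with no name and no stated function. The edge of the rule lay between Cre52.g761647, an older id at 0.32 to 1.47 FPKM, and Cre01.g800000, a new locus at 22.9 to 33.1 FPKM. Neither showed anything particular to its side of the limit: Cre01.g800000 was called in 0 pairs of strains.

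The study grew 7 laboratory strains, each described as wild type, with no treatment and took 4 replicate cultures of each (28 libraries). CC-124, CC-1009, CC-1691, CC-4532 and CC-4533 are of the minus mating type (mt-), and CC-125 and CC-1690 are of the plus mating type (mt+). All were grown in acetate medium (TAP) with trace metals, shaken at 180 rpm under continuous light of 50 to 70 µmol photons, and collected in mid-logarithmic phase. Poly-adenylated RNA was sequenced, and the reads of every strain were mapped to the genome of 1 of them, CC-4532, for which the new loci were annotated. Levels are in FPKM, a read number scaled for depth and divided by transcript length.

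As background, an annotation gains loci in several ways: a gap in the older assembly is filled, a gene array is resolved into its copies, a gene that the older reference strain lacked is present in the new one, or a short or weakly expressed transcript is recognized. The older reference genome of this alga came from an mt+ strain and CC-4532 is mt-, so genes found only in the minus mating type locus could be placed. Laboratory strains of *C. reinhardtii* descend from few founders and carry mosaics of diverged haplotype blocks, so that 2 strains can differ at a locus in presence, copy number or sequence. Reads that fit several near-identical copies were assigned by the authors to 1 location at random, so the levels of such copies cannot be told apart from each other. Their counting was also set to take such reads as fractions, and the effect on the levels of copies was not tested.

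The libraries fell into 2 sets by a number in their names: set 2 held the 8 from CC-125 and CC-4533, and set 1 the 20 from the other 5 strains. The sets also differed in inoculation (2 batches of flasks a strain in set 1, a single batch in set 2) and in depth. Total read numbers are not given in the table; the steps between the lowest values put relative depth at 0.650 to 1.21 in set 1 and 1.32 to 1.85 in set 2, each from only 4 to 37 values. Set and strain cannot be told apart for CC-125 and CC-4533. Summed FPKM ran from 480355 to 1319900 per library, and replicate 3 of CC-4533 lay apart from the other replicates of its strain; without it the calls given below rose from 564 to 607 new loci and from 3903 to 4600 older ids. Labels give the replicates of a strain as separate cultures.

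Most new loci were transcribed at low levels. A total of 169 (7.70%) were listed at 0 in all 28 libraries, against 111 older ids (0.72%). At the other end, 1203 new loci (54.8%) were above 0 in every library, against 13935 older ids (90.4%). The median of the mean level over 28 libraries was 0.754 FPKM for new loci and 3.93 FPKM for older ids. The study asked for more than 1 FPKM in a strain of a pair before it called a difference. A strain mean above that level was reached in at least 1 strain by 1211 new loci (55.2%) and 13574 older ids (88.1%). The percent over all ids was 84. In all 7 strains that level was passed by 667 new loci (30.4%) and 10624 older ids (68.9%). In 1 to 6 of the strains it was passed by 544 new loci (24.8%) and 2950 older ids (19.1%), which is 44.9% of the new loci and 21.7% of the older ids that passed it in at least 1 strain. The share of loci that reached the limit in at least 1 strain ran from 47.7% of 128 new loci with the prefix Cre10 to 69.0% of 84 with the prefix Cre13, where the prefix is the chromosome number in the id. For the 90 new loci with prefixes of 18 and higher it was 43.3%.

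**Figure D1:**
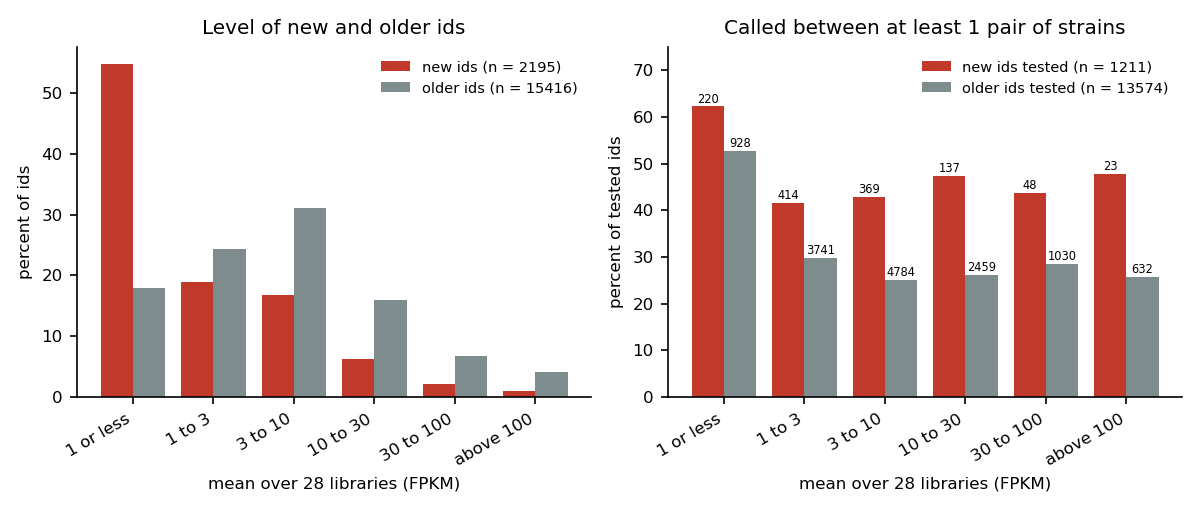
Left, percent of new ids (red, 2195) and older ids (grey, 15416) in each class of mean FPKM over 28 libraries. Right, percent of tested ids in each class that were called between at least 1 pair of strains, with the number tested above each bar. At 1 FPKM or less lay 1204 of the new and 2770 of the older ids, and in every class the red bar on the right is the taller.

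Between libraries, the percent of new loci above 1 FPKM ran from 41.3 to 44.9 in set 1 and from 39.5 to 41.5 in set 2. CC-1009 had the highest values, 44.3% ± 0.432 (SD, n = 4), against 42.1% in the other 24 libraries (exact permutation test, two-sided, adjusted p = 0.0255 over 21 tests). CC-1009 stayed apart within set 1 (43.1% in the other 16 libraries, exact permutation test, adjusted p = 0.0448), although without its replicate 4 the test against all other libraries gave an adjusted p of 0.0582 by the same exact test. CC-125, at 40.2% ± 0.481, and CC-4533, at 40.4% ± 0.789 (SD, n = 4), were lower than the other libraries (exact permutation test, adjusted p = 0.0144 and 0.0164), but against each other within set 2 they differed by 0.194 percentage points (exact permutation test, p = 0.771). With 5 FPKM as the limit the difference of CC-125 from all other libraries turned to 0.330 points higher (exact permutation test, adjusted p = 0.598). CC-1690 was lower within set 1, 42.1% ± 0.577 against 43.6% (exact permutation test, n = 4 and 16, adjusted p = 0.0108), and not against all other libraries (adjusted p = 0.668).

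The gap between new and older ids was also measured within each library. Among older ids 76.0% to 82.1% were above 1 FPKM, and the percent among new loci was 34.4 to 38.7 points lower. In CC-124 the gap was -38.2 ± 0.548 points against -36.4 in the other 24 libraries (SD, n = 4; exact permutation test, adjusted p = 0.0325) and against -35.7 in the rest of set 1 (exact permutation test, adjusted p = 0.00433). CC-4533 had a gap of -38.2 ± 0.799 points (SD, n = 4, exact permutation test, adjusted p = 0.0378). Within set 2 its difference from CC-125 was -0.596 points (exact permutation test, adjusted p = 0.362). That test, of 4 against 4 libraries with 70 choices, could not pass after adjustment, so nothing is read from it. The differences of CC-124 and CC-4533 from all other libraries, -1.78 and -1.73 points, kept their sign with any 1 library left out. Several such omissions took the adjusted p past the threshold, and leaving out a strain's own replicate also gives the test fewer libraries. Without replicate 4 of CC-1009 the differences were -1.69 and -1.64 points (exact permutation test, adjusted p = 0.0526 and 0.0582). That of CC-124 was -1.64 and -1.62 points without its own replicate 1 or 3 (exact permutation test, adjusted p = 0.111 and 0.112), and that of CC-4533 was -1.604, -1.585 and -1.602 without its replicate 1, 2 or 4 (exact permutation test, adjusted p = 0.107, 0.104 and 0.107). With 5 FPKM as the limit neither passed (-0.571 and -0.659 points), and with 0.5 FPKM that of CC-124 did not (-0.331). In CC-1009 it was narrower, -35.0 ± 0.524 points (exact permutation test, n = 4, adjusted p = 0.0183), which did not pass within set 1 (adjusted p = 0.174) or without its replicate 4 (1.72 points narrower, adjusted p = 0.0582). The percent of new loci itself in CC-124, 43.4 ± 0.689, did not pass against the other libraries (exact permutation test, n = 4 and 24, adjusted p = 0.332). The new loci together held 3.12% to 3.33% of summed FPKM in set 1 and 2.60% to 2.79% in set 2. The sets did not overlap in this share, and 3 loci, described next, made up 34.5% to 55.1% of it.

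**Figure D2:**
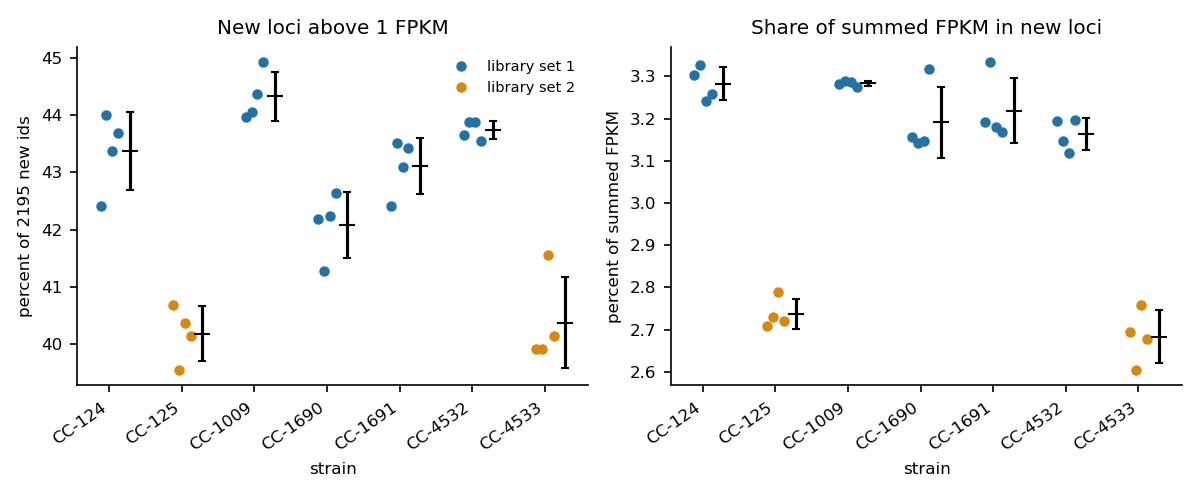
Each point is 1 library, by strain, with the mean and SD of 4 libraries in black; blue is set 1 and orange set 2. Left, percent of 2195 new loci above 1 FPKM, 39.5 to 44.9; right, percent of summed FPKM held by new loci, 2.60 to 3.33, where the 8 libraries of set 2 lie below all 20 of set 1.

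Among the new loci were 23 with a mean above 100 FPKM, 2 of them with a symbol. The most abundant was Cre09.g800985, with no description. Its level was 2441.9 to 5105.71 FPKM in CC-124, 4461.72 to 9625.65 in CC-1690 and 2173.67 to 2367.74 in CC-1691. The 4 replicates of CC-1690 spread over a more than 2-fold range, and replicates 1 and 4 of CC-124 lay well above replicates 2 and 3. PSBW1 (Cre11.g801318) encodes the W protein of photosystem II, a small nucleus-encoded subunit of that complex. It was at 5482.92 ± 1660 FPKM in CC-1690 and 2393.98 ± 339 in CC-1691 (SD, n = 4), its highest and lowest strains. That difference, 1.16 ± 0.18 on the log2(FPKM + 0.1) scale, did not pass a test against a 2-fold change (limma, adjusted p = 1), and it was -0.031 after quantile normalization, so no direction is given for PSBW1. Cre16.g801914 ran from 1226.29 FPKM in a CC-1691 library to 5361.33 in a CC-1690 library. In these 3 loci the same libraries were high: replicate 2 of CC-1690 above its 3 other replicates, and replicates 1 and 4 of CC-124 above 2 and 3. Summed FPKM over all ids was high in the same libraries. It was 746195 and 687533 in replicates 1 and 4 of CC-124, against 480355 and 489219 in 2 and 3. Replicate 2 of CC-1690 had the highest sum of all 28 libraries. The part of this in the levels was not tested.

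Of the next 5 loci in abundance, Cre07.g800769 was called. It had 585.25 to 1011.63 FPKM in CC-1690 and 143.24 to 185.84 in CC-4533, a difference of 2.07 ± 0.18 on the log2 scale (SE; limma test against a 2-fold change, adjusted p = 3.6e-05), and the groups did not overlap. Cre14.g801627 (381.3 FPKM in CC-124, 862 in CC-1690), Cre08.g800949 (238.5 and 640.9 in the same strains), Cre01.g800026 (199.2 in CC-1691 and 501.5 in CC-4533) and Cre06.g800623 (224.3 in CC-1691 and 391 in CC-125) were called in 0 pairs. QCR6 (Cre16.g801917), a subunit of the mitochondrial cytochrome bc1 complex of respiration, was the other abundant locus with a symbol, at 164.84 FPKM in CC-4532 and 453.2 in CC-1690, and was also called in 0 pairs.

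Differences between strains were tested with limma on log2(FPKM + 0.1) in all ids whose mean passed 1 FPKM in at least 1 strain, against a 2-fold change, with Benjamini-Hochberg adjustment over all ids tested and a threshold of 0.01. Between at least 1 of the 21 pairs of strains, 564 of 1211 new loci tested were called (46.6%), where the share over all 14785 ids tested was 30.2% and that of older ids 28.8% (3903 of 13574). Because many new loci never reached the test, the calls made up 25.7% of all new loci and 25.3% of all older ids. The share of tested loci was larger among the new in each class of level. At 1 to 3 FPKM it was 41.5% of 414 new loci and 29.8% of older ids, at 3 to 10 FPKM 42.8% and 25.04%, at 10 to 30 FPKM 47.4% and 26.2%, and above 100 FPKM 47.8% of 23 new loci and 25.8% of older ids. Below 1 FPKM (62.3% and 52.7%) nothing is read from it, since such a locus entered the test only through a strain in which it was high. The median spread between the highest and lowest strain was 3.13-fold among new loci tested and 2.28-fold among older ids. Replicates also spread more among new loci, with a median within-strain SD of 0.30 on the log2 scale against 0.22.

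Every pair of strains gave a larger called share among new loci than among older ids, from 4.46% (CC-1009 and CC-1691, 54 loci) to 16.7% (CC-125 and CC-1690, 202 loci), against 1.57% to 9.23% of older ids; the background over all ids was 1.81% and 9.84% for those 2 pairs. The pairs share strains and are not separate evidence. By prefix, the called share was highest for Cre15, with 66 of 105 tested new loci (62.9%), where 191 of the 328 ids with that prefix were new. Older Cre15 ids were also called more often than older ids at large, 42 of 118 tested (35.6%) against 28.8%. Without Cre15 the share was 498 of 1106 new loci (45.0%).

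Set against the mean of the other 6 strains, CC-4532 had 93 new loci called higher and 32 lower (7.68% and 2.64% of those tested; 2.39% and 1.01% of all ids). CC-1009 had 86 higher and 31 lower (background 2.52% and 0.933%), and CC-124 47 higher and 16 lower (1.66% and 1.37%). More were lower than higher in CC-4533, with 23 higher and 77 lower (0.967% and 4.11%), and by smaller margins in CC-125, with 55 higher and 69 lower (3.29% and 1.98%). CC-1690 had 76 higher and 83 lower (2.41% and 3.27%), and CC-1691 had 49 higher and 37 lower (1.69% and 1.22%). The higher counts include loci that entered the test only through the strain in which they were high, since no other strain mean was above 1 FPKM. There were 14 of these in CC-1009, 7 in CC-4532, 6 in CC-124, 5 each in CC-125 and CC-1690, 4 in CC-4533 and 3 in CC-1691, and without them CC-4532 had 86 higher and CC-1009 had 72. Older ids leaned the same way in CC-4532 (261 higher, 118 lower), CC-1009 (286 and 107) and CC-4533 (120 and 531). In CC-125 they leaned the opposite way from the new loci, with 432 higher and 224 lower. In CC-124 the older ids were near balance, 199 higher and 187 lower. CC-4532 is the strain to whose genome all reads were mapped; the part of that in its counts was not tested.

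**Figure D3:**
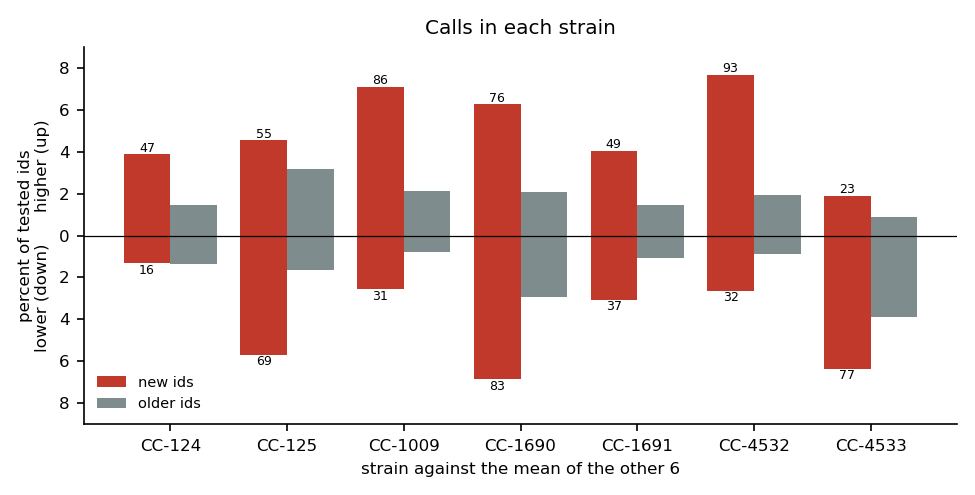
For each strain against the mean of the other 6, percent of tested new ids (red, 1211 tested) and older ids (grey, 13574 tested) called higher, upward, or lower, downward; numbers count new loci. The red bars are the taller except for lower calls in CC-124, 1.32% of new and 1.38% of older ids, and CC-4532 and CC-1009 reach highest with 93 and 86 new loci.

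The locus with the largest increase in each strain, among those whose 4 replicates all lay outside the range of the other 24 libraries, was followed library by library. In the next paragraphs log2 values are differences on the log2(FPKM + 0.1) scale between a strain and the mean of the other 6, with SE, and adjusted p-values are those of the limma test against a 2-fold change. Where other libraries are listed at 0 the size of such a value depends on the 0.1 added, so it is no measure of fold. The loci were picked by these same values, so the adjusted p-values describe them and are no separate evidence, and none is given where no other strain had a mean above 1 FPKM.

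Cre14.g801600 stood out most, with 57.1, 54.42, 54.7 and 52.32 FPKM in CC-4532 and at most 0.51 FPKM in any of the other 24 libraries, 12 of which were listed at 0 (log2 8.34 ± 0.25). It has no description. Its 4 replicates in CC-4532 agreed closely, 54.6 ± 2.0 FPKM (SD, n = 4). In CC-124, Cre15.g801795 was at 132.77, 62.07, 67.13 and 117.72 FPKM, again with replicates 1 and 4 above 2 and 3 (log2 6.73 ± 0.21, adjusted p = 6.24e-18). The same locus was at 13.04 to 14.39 FPKM in CC-1009 and 11.18 to 14.21 in CC-1691, under 1 FPKM in CC-1690 and CC-4532, and listed at 0 in all 4 libraries of CC-125. Its neighbours by number, Cre15.g801792 and Cre15.g801794, had the same order of strains at lower levels, with strain means of 12.9 and 10.6 FPKM in CC-124, 5.23 and 4.31 in CC-1009, and 4.42 and 3.65 in CC-1691.

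CC-1009 had 5.41 to 6.48 FPKM of Cre02.g800255, where the other 24 libraries ran from 0 to 0.21 (log2 5.39 ± 0.18). CC-1690 had 3.65, 6.44, 3.3 and 4.41 FPKM of Cre11.g801279 (log2 4.82 ± 0.17, adjusted p = 7.32e-16); CC-4532 had 0.7 to 1.85, and the 20 libraries of the other 5 strains were all listed at 0. CC-1691 had 5.29 to 6.41 FPKM of Cre02.g800201, followed by CC-1690 with 2.37 to 3.12, while the remaining strains were at 0.16 or below (log2 4.64 ± 0.15, adjusted p = 2.21e-16). In CC-125 the locus was Cre12.g801443, at 10.03 to 13.93 FPKM against 0.48 to 2.75 elsewhere (log2 3.28 ± 0.20, adjusted p = 6.22e-10). None of these has a description.

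The seventh carries one: Cre09.g800972 is annotated as a flagella membrane glycoprotein pseudogene. The functional glycoproteins of this kind coat the flagellar surface and serve in gliding and adhesion. In CC-4533 its level was 24.72, 19.92, 32.35 and 19.68 FPKM, against 0.06 to 3.7 in the other 24 libraries (log2 4.68 ± 0.32, adjusted p = 6.34e-10). It was also the largest decrease of CC-124, at 0.23, 0.06, 0.17 and 0.07 FPKM, below every other library (log2 -3.19 ± 0.32, adjusted p = 1.06e-05); that call was lost with a pseudocount of 1 (-1.61, adjusted p = 0.0715). A pseudogene can share reads with the intact gene it resembles, so its own level is uncertain.

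Among decreases, Cre02.g800174 was at 0.66, 1.7, 0.81 and 0.25 FPKM in CC-4533 and at 13.31 to 231.86 FPKM in the other strains (log2 -6.14 ± 0.23, adjusted p = 4.78e-16). The other strains differed as well, from 13.31 to 18.51 FPKM in CC-4532 up to 107.16 to 231.86 in CC-1690, so it was called in 11 of the 21 pairs. Cre09.g801023 was at 0 to 0.06 FPKM in CC-4532 and at 2.38 to 8.94 in the 24 other libraries (log2 -5.54 ± 0.12, adjusted p = 1.09e-20). It was the single new locus off in 1 strain and on in all others, and the strain that lacked its RNA was the one from whose genome it was annotated. Cre12.g801338 was at 0 to 0.03 FPKM in CC-1009 and 0.7 to 5.77 elsewhere (log2 -4.81 ± 0.10, adjusted p = 3.11e-20).

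Cre06.g800595 was lowest in CC-125, the 4 replicates at 0.62 to 1.05 FPKM, next lowest in CC-1690 at 1.83 to 2.91, and at 8.86 to 34.88 in the 20 libraries of mt- strains (log2 for CC-125 -3.81 ± 0.13, adjusted p = 2.45e-15). Its number is close to those of the mating type genes below. Cre04.g800465 was at 0.35 to 0.61 FPKM in CC-1690 and 2.71 to 12.98 elsewhere (log2 -3.58 ± 0.15, adjusted p = 1.4e-13). Cre02.g800246 was at 0 to 0.1 FPKM in CC-1691 and 0.99 to 2.07 elsewhere (log2 -3.33 ± 0.15, adjusted p = 1.1e-12), a low locus whose call was lost with a pseudocount of 1 (-1.19, adjusted p = 0.322). Its neighbours Cre02.g800247 and Cre02.g800248 were also lowest in CC-1691, at 0 and 0.0375 FPKM, with other strain means of 0.4625 to 2 FPKM.

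A locus was called restricted when all 4 replicates of at least 1 strain were at 1 FPKM or above and all 4 of another at 0.1 or below. This held for 65 new loci (2.96% of ids) and 189 older ids (1.23%), 1.44% of all 17611 ids. The number of new loci was 101 with the upper limit at 0.5 FPKM, 31 with it at 2, 33 with the lower limit at 0 and 113 when strain means were used. The definition separates the groups, so no test is read from it. The highest strain mean of the 65 had a median of 2.19 FPKM; 29 never passed 2 FPKM and 8 passed 10. A single strain was on in 31 of them (47.7%; older ids, 43.9%). That does not make them silent elsewhere, since a strain neither on nor off could still have RNA. Cre10.g801207, on in CC-4532 alone at a mean of 1.51 FPKM, had a mean of 2.105 in CC-1690. By strain, CC-4532 was on in 27 and CC-124 in 26, whereas CC-4533 was on in 12 and CC-125 in 13. CC-125 and CC-4533 were also off most often, in 28 and 27. Among older restricted ids CC-4532 was on in 79, CC-124 in 67, CC-125 in 58 and CC-4533 in 30. There CC-4533 was off most often, in 99, with 54 in CC-1691, 52 in CC-1690 and 51 in CC-125. By prefix, 17 of 191 new ids were restricted in Cre15, 9 of 129 in Cre09, 7 of 126 in Cre02 and 6 of 168 in Cre06. None of 142 in Cre03 or of 82 in Cre08 was, where the share over all new ids was 2.96%. Symbols were attached to 2.

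**Figure D4:**
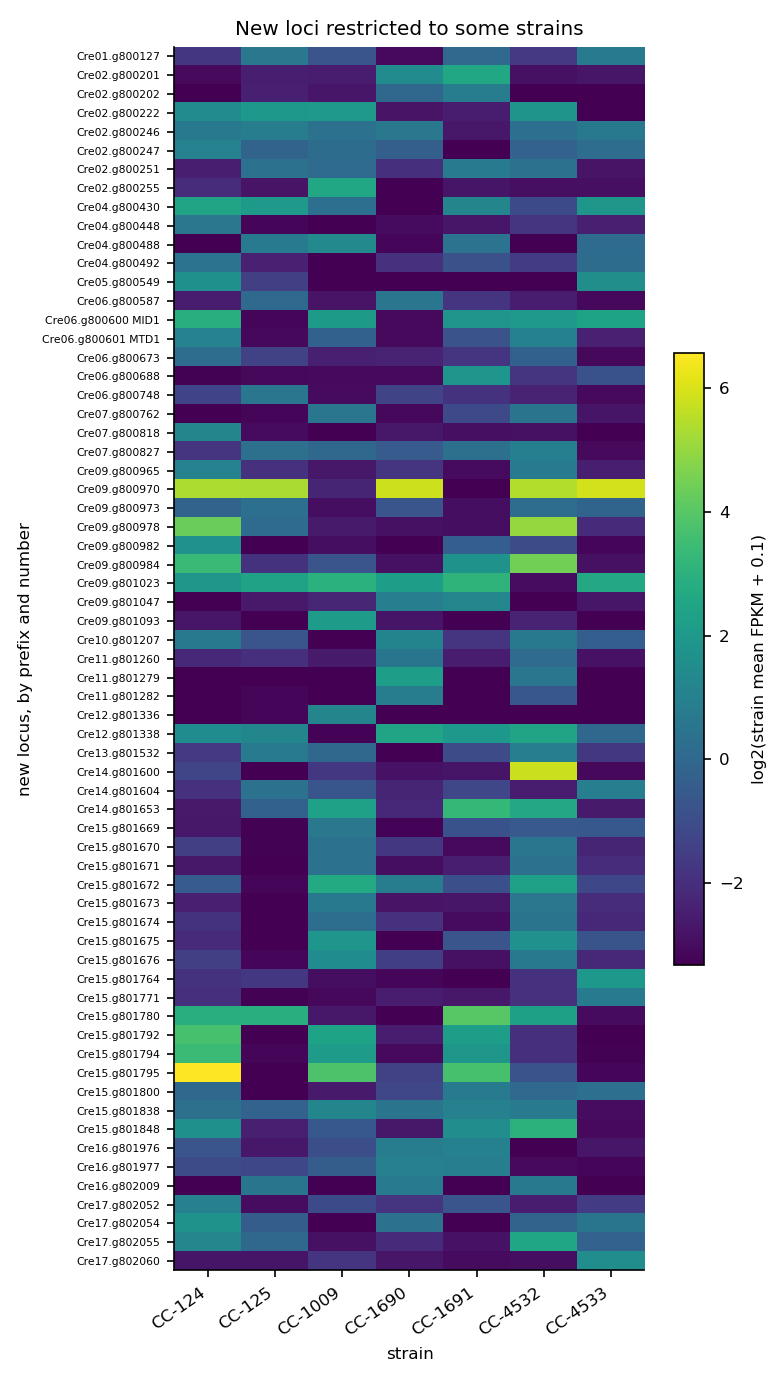
Rows are the 65 restricted new loci by prefix and number, columns the 7 strains, and colour the log2 of the strain mean FPKM plus 0.1, from dark (near 0 FPKM) to yellow (near 95 FPKM). Cre15.g801669 to Cre15.g801676 form a block of 8 rows that is bright in CC-1009 and CC-4532 and dark in CC-125, and MID1 is dark in CC-125 and CC-1690.

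Those 2 were the mating type genes. MID1 (Cre06.g800600), minus dominance, encodes the transcription factor that directs gametes of this alga to minus fate, and it lies in the minus mating type locus. It was at 11.4, 5.75, 5.53 and 7.35 FPKM in CC-124, 4.33, 4.4, 4.4 and 3.35 in CC-1009, 3.12, 3.69, 3.5 and 3.39 in CC-1691, 4.02, 3.26, 3.99 and 4.64 in CC-4532, and 3.48, 4.21, 8.13 and 5.05 in CC-4533. In CC-125 it was at 0.05 in replicate 1 and listed at 0 in the others, and in CC-1690 at 0.08 in replicate 3 and listed at 0 in the others. The 20 mt- and 8 mt+ libraries did not overlap, so the RNA matched the labelled mating type in every library. MID1 was called in all 10 pairs of an mt- and an mt+ strain (CC-124 against CC-125, 6.04 ± 0.23 on the log2 scale, limma adjusted p = 2.41e-15) and in no other pair.

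MTD1 (Cre06.g800601), a gene of the same locus, did not follow the mating type as closely. It was at 1.5 to 2.81 FPKM in CC-124 and 1.64 to 2.07 in CC-4532, at 0.53 to 0.89 in CC-1009 and 0.36 to 0.71 in CC-1691, and at 0.05, 0.15, 0.1 and 0.05 in CC-4533, which is mt-. The mt+ libraries were at 0.07 or below. MTD1 was called in 6 of the 21 pairs, those of CC-124 or CC-4532 with CC-125, CC-1690 or CC-4533 (CC-124 against CC-125, 4.15 ± 0.23, limma adjusted p = 3.46e-11). Pairs without CC-124 or CC-4532 could not be called, since no other strain mean was above 1 FPKM. Against CC-124 and CC-4532, CC-4533 was called as the mt+ strains were. No other new locus was on in the 5 mt- strains and off in the 2 mt+ strains, and none had the opposite pattern.

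Besides MID1 and Cre09.g801023, 2 new loci were strictly on or off in every strain (4 in all, and 12 older ids; 0.0909% of all ids). Cre12.g801336 was on in CC-1009 alone, at 2.34, 2.05, 2.17 and 2.18 FPKM, with 23 of the other 24 libraries listed at 0 and the last at 0.05. Cre16.g802009, named after its values were seen as are the loci in the rest of this paragraph, was on in CC-125 (1.11 to 1.63 FPKM), CC-1690 (1.34 to 1.81) and CC-4532 (1.26 to 1.78), and at 0 to 0.01 in the other 16 libraries. That trio joins both mt+ strains and 1 mt- strain. Of the 65 restricted loci Cre09.g800970 had the highest mean over the 28 libraries, with 35.73 to 78.85 FPKM in 5 strains, listed at 0 in all 4 libraries of CC-1691, and at 0, 0, 0 and 0.41 in CC-1009. Cre15.g801780 was at 3.79 to 17.92 FPKM in CC-124, CC-125, CC-1691 and CC-4532 and at 0.12 or below in CC-1009, CC-1690 and CC-4533.

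Of 18 new ids from Cre09.g800965 to Cre09.g800984, 6 were restricted, on in 1 to 5 strains. Cre09.g800978 had 10.8, 27.85, 26.54 and 13.15 FPKM in CC-124 and 30.51 to 33.56 in CC-4532, about 1 FPKM in CC-125, and 0.3 or less elsewhere. Cre09.g800983, not itself restricted, had 75.38 to 86.6 FPKM in CC-124, 42.51 to 53.64 in CC-4532 and 60.33, 15.9, 17.91 and 41.17 in CC-1691, against at most 2.13 in the other 16 libraries. Its neighbour Cre09.g800984 was high in the same 3 strains in another order, 18.91 to 25 FPKM in CC-4532, 7.94 to 14.12 in CC-124 and 1.47 to 4.7 in CC-1691. In CC-1691 replicates 1 and 4 were above 2 and 3 for both neighbours.

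The 8 consecutive loci Cre15.g801669 to Cre15.g801676 were all restricted. Their strain means were 1.09 to 6.55 FPKM in CC-1009 and 0.575 to 4.95 in CC-4532, and 0 to 0.01 in CC-125. The most abundant, Cre15.g801672, had 5.95 to 6.98 FPKM in CC-1009, 3.97 to 5.5 in CC-4532, 1.49 to 1.92 in CC-1690, 0.29 to 0.78 in CC-124, CC-1691 and CC-4533, and 0, 0, 0.04 and 0 in CC-125.

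The largest named family among the new loci was NCL, short for Nuclear Control of chloroplast-Like: 31 of the 40 symbols, NCL39 to NCL69, all with the prefix Cre15. These are relatives of NCC1 and NCC2, proteins of octotricopeptide repeats that act in the nucleus-encoded control of chloroplast transcripts, and they form an array of closely similar genes; 6 of the 31 are annotated as pseudogenes. All 31 were tested and 20 were called between at least 1 pair (64.5%; all ids, 30.2%), whereas 4 of 17 older NCC and NCL ids tested were called (23.5%). The median spread between highest and lowest strain was 1.96 on the log2 scale for the new and 0.87 for the older members. Levels were low: over the 31 loci the median strain mean was 0.72 FPKM in CC-124, 0.70 in CC-125, 0.87 in CC-1009, 1.3 in CC-1690, 0.78 in CC-1691, 1.97 in CC-4532 and 0.935 in CC-4533.

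The array split by locus and by strain. CC-4532 was the highest strain in 19 of the 31. For 12 of the 31, all called, the largest gap between ordered strains was at least 2-fold and set CC-1690 and CC-4532 above the other 5. They were NCL40, NCL41, NCL42, NCL44, NCL46, NCL47, NCL48, NCL50, NCL53, NCL55, NCL56 and NCL63. In NCL39, NCL51, NCL52 and NCL54 the largest gap lay in the same place, but it was smaller or the locus was called in 0 pairs. Over these 12 the median level per library was 2.15 to 2.32 FPKM in CC-4532 and 1.45 to 1.63 in CC-1690, and 0.295 to 0.485 in the 20 libraries of the other strains. The gap that picked these 12 fixes that order, so nothing is read from it. The NCL loci given one by one were picked for their small p-values over strains, which are likewise a description. NCL44 is an example, with 2.67, 2.92, 2.36 and 3.23 FPKM in CC-4532, 1.99, 1.53, 1.83 and 2.08 in CC-1690, and 0.12 to 0.44 elsewhere (CC-4532 against CC-1691, 3.29 ± 0.18 on the log2 scale, limma adjusted p = 1.21e-10). NCL53 had 1.95 to 2.64 FPKM in CC-4532 and 0.18 to 0.23 in CC-124 (3.00 ± 0.17, limma adjusted p = 6.03e-10). NCL50 had 2.72 to 2.92 in CC-4532 and 0.37 to 0.52 in CC-125 (2.44 ± 0.14, limma adjusted p = 3.67e-09).

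Other members went the opposite way. NCL58 was at 0.58 to 0.74 FPKM in CC-1690 and 0.73 to 1.19 in CC-4532, and at 3.11 to 5.3 in the other 5 strains (CC-4533 against CC-1690, 2.66 ± 0.14, limma adjusted p = 1.49e-10). NCL59 was at 0.74 to 1.04 FPKM in CC-1690, 1.25 to 1.5 in CC-4532 and 2.79 to 4.27 elsewhere (CC-1009 against CC-1690, 2.01 ± 0.10, limma adjusted p = 6.29e-09). NCL66 was at 1.49 to 1.54 FPKM in CC-1690, 2.4 to 2.88 in CC-4532 and 3.77 to 7.14 elsewhere (CC-4533 against CC-1690, 2.04 ± 0.09, limma adjusted p = 2.79e-10). In these loci CC-1690 and CC-4532 were both below the other strains, but the loci were picked by their values. Not all members kept these strains together. NCL45 was highest in CC-4532 at 2.34 FPKM, with CC-1690 at 1.33 among the rest. NCL60 was lowest in CC-1690 at 0.798 FPKM, with CC-4532 at 1.41 among the rest. The NCL copies resemble each other, and how reads divided among them was not tested.

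**Figure D5:**
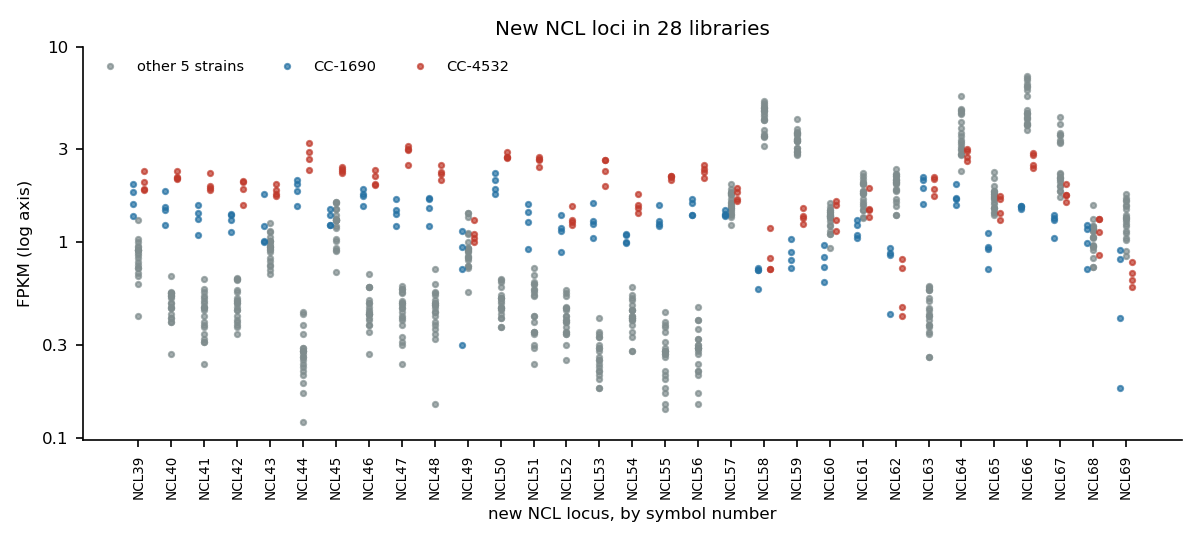
Each point is 1 library, for the 31 new NCL loci in order of symbol number, on a log axis of FPKM from 0.12 to 7.14; CC-1690 is blue, CC-4532 red and the other 5 strains grey. From NCL40 to NCL56 most loci have red and blue points above the grey, and at NCL58, NCL59 and NCL66 red and blue lie below.

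A division of CC-1690 and CC-4532 from the other strains was looked for in all called new loci. For 358 of the 564 called new loci the ordered strain means had a gap of at least 2-fold, and in 40 of these (11.2%) CC-1690 and CC-4532 were the high group, against 10 older ids (0.570% of those with such a gap). The 12 NCL loci are among the 40, and 28 lay outside the family: 20 in Cre11, 4 in Cre10, 3 in Cre02 and 1 in Cre15. CC-1009 alone was high in 32 new loci (8.94% of those with such a gap) and in 79 older ids (4.50%). Some of these new loci, such as Cre02.g800255 and Cre12.g801336, entered the test only through CC-1009, so nothing is read from these shares. Many of the 40 carried near-identical values, and copies that share reads are not separate measurements.

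The clearest case was a row of 13 consecutive ids, Cre11.g801259 to Cre11.g801271, in which 2 profiles alternated. The 7 with odd numbers had a median level per library of 8.62 to 9.27 FPKM in CC-4532, 5.78 to 7.24 in CC-1690, 0.79 to 1.56 in CC-124, CC-1009, CC-1691 and CC-4533, and 0.29 to 0.53 in CC-125. The 6 with even numbers were instead highest in CC-1690, at 3.6 to 4.15 FPKM, then CC-4532 at 2.465 to 3.33, CC-124 at 0.36 to 0.555, CC-125 at 0.31 to 0.4, and at 0.24 or less in CC-1009, CC-1691 and CC-4533. The alternation reappeared with another prefix. Cre10.g801181 and Cre10.g801183 had strain means of 9.73 to 12.4 FPKM in CC-4532 and 6.61 to 8.41 in CC-1690, whereas Cre10.g801182 and Cre10.g801184 had 2.51 to 3.07 in CC-4532 and 4.005 to 4.43 in CC-1690. Another group, 5 ids from Cre11.g801232 to Cre11.g801238, had strain means of 7.18 to 8.3 FPKM in CC-1690, 4.23 to 4.63 in CC-4532, and 0.717 to 1.84 in the rest, nearly the same value for each member.

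Such runs were looked for across all called new loci, as 3 or more called ids of 1 prefix, taken in order of number, in which each id and the next called one were at most 2 apart and had strain profiles correlated at 0.9 or above over the 7 strains. Rows of alternating profiles, as in Cre11.g801259 to Cre11.g801271, break at each step and are not counted. Older ids were not searched, so the count has no background and is not read as a trait of the new loci. There were 12 runs with 47 loci (8.33% of those called), the longest of 8, NCL47 to NCL56. Outside the NCL array they included 5 ids from Cre06.g800606 to Cre06.g800613, at 3.88 to 5.22 FPKM in CC-1009 and 0.352 to 0.717 in CC-125, and 3 from Cre01.g800105 to Cre01.g800108, lowest in CC-1690.

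The remaining 9 symbols were scattered; 8 of these loci were tested and 4 called. MID1 and MTD1 were given above. SDHAF1 (Cre13.g801514), an assembly factor of mitochondrial succinate dehydrogenase, had strain means of 5.22 FPKM in CC-124 and 20 in CC-4533 and was called in 2 pairs. XPD2 (Cre02.g800190), a DNA helicase of the RAD3 and XPD family, ran from 0.22 in CC-1009 to 1.42 in CC-4533 and was called in 1 pair. FTSHI2 (Cre04.g800432), an FtsH-like ATPase of chloroplast protein import, was at 5.61 FPKM in CC-1690 and 10.8 to 13.9 in the others, and DRC1 (Cre08.g800896), of the nexin-dynein regulatory complex of the flagellum, at 3.77 to 7.46; both were called in 0 pairs. NAR1A (Cre09.g801078), a nitrite transporter of the chloroplast, was near 0 in every strain, at a highest strain mean of 0.01 FPKM.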

How the data were processed

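Poly-adenylated RNA of 28 cultures (7 strains, 4 replicates each) was read as single ends of short length by the study. As its methods state, the authors mapped reads to the CC-4532 assembly with STAR, counted them by strand over the v6.1 annotation with featureCounts, placing a read with several fits at 1 of them at random, and deposited FPKM scaled with DESeq2 and rounded to 2 decimals, so library sums differ and counts were not used here. Versions are not given in the sources used here. The members and lists were chosen with earlier results of these data known.

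New loci are ids numbered 800000 or higher. In 1 line, of an older id, columns were shifted and were realigned. The table was analysed with limma 3.58.1 (R 4.3.3) on log2(FPKM + 0.1) with a mean-dependent prior, over all 28 libraries and all ids with a strain mean above 1 FPKM in at least 1 strain. Calls needed an adjusted p below 0.01 (Benjamini-Hochberg over all ids tested) in the test against a 2-fold change and, for a pair, a mean above 1 FPKM in a strain of the pair. The procedure was tested on simulated data. Library measures were compared with exact permutation tests (scipy 1.17.1) over 20475 choices of 4 of 28 libraries, adjusted over 21 tests. Relative depth came from the steps between low values of ids above 0 in 2 to 10 libraries. The limma p-values rest on the spread between cultures within strains, pooled over all strains, and some cultures share an inoculation batch. The permutation p-values rest on the spread over all libraries compared, across strains and, outside the tests within a set, across sets.

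Named loci are the 8 with the highest mean, the largest called increase and decrease of each strain with 4 replicates outside the range of the rest, up to 2 loci strictly on or off in each strain alone, loci that follow the mating type, the 8 symbols with the smallest p over strains, and the ids at the limit of the number. Other names were chosen after values were seen. Samples with the same replicate number did not deviate together (mean correlation -0.0024 over 84 pairs of libraries), so numbers were not used as pairs. Alternatives covered the pseudocount, scaling, filters, test, replicate block, library set and each library left out. Sequences and coordinates of the new loci were not used here.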

Additional observations from a re-analysis of the deposited data

Results flagged for a closer look

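A test for 1 replicate lying apart from the 3 others of its strain (Dixon's criterion at its 95% critical value) was applied to 177 groups of 4, and 11 (6.21%) passed, where chance flags about 1 in 20. In CC-4533, replicate 3 had 41.5% of new loci above 1 FPKM (39.9 to 40.1 in the others) and a gap between new and older ids of -37.0 points (-38.6 to -38.5), and Cre01.g800026 was at 567.87 FPKM (474.27 to 484.55). The share of summed FPKM in new loci was 3.32% in replicate 4 of CC-1690 (3.14 to 3.16) and 3.33% in replicate 2 of CC-1691 (3.17 to 3.19).

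Among named loci, Cre06.g800595 was at 1.05 FPKM in replicate 4 of CC-125 (0.62 to 0.68), Cre12.g801338 at 5.77 in replicate 4 of CC-4532 (5.17 to 5.27) and MID1 (Cre06.g800600) at 3.35 in replicate 4 of CC-1009 (4.33 to 4.4). NCL66 (Cre15.g801727) was at 4.57 in replicate 4 of CC-1691 (3.98 to 4.03), NCL59 (Cre15.g801719) at 2.85 in replicate 2 of CC-4533 (3.29 to 3.37) and NCL50 (Cre15.g801709) at 2.92 in replicate 3 of CC-4532 (2.72 to 2.75). No cause was tested for any of these.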

How the results depend on the processing

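Counts of called loci moved with the pseudocount, the level required and the test. Called in at least 1 pair were 350 new and 2438 older ids with a pseudocount of 1, 310 of 600 new and 2552 older ids with a strain mean above 5 FPKM, and 966 new and 8509 older ids with a test against no change. Each time the share of tested ids was larger among the new (28.9% and 17.96%, 51.7% and 30.2%, 79.8% and 62.7%). Without a filter on FPKM 643 of 2195 new loci were called (29.3%; older ids, 26.6%), and with set 1 alone 403 of 1174 (34.3%; older ids, 19.5%). A fit with the replicate number as a block (replicate block) called 557 new and 3839 older ids. Leaving out 1 library gave 544 to 607 new and 3684 to 4600 older ids. A level above 5 FPKM was reached by 600 new loci.

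Against the other 6 strains, new loci called with a pseudocount of 1 and with a test against no change numbered 35 and 202 in CC-124, 66 and 287 in CC-125, 64 and 280 in CC-1009, 87 and 334 in CC-1690, 40 and 198 in CC-1691, 57 and 244 in CC-4532, and 50 and 270 in CC-4533. Above 5 FPKM they were 76 in CC-1009, 97 in CC-1690 and 70 in CC-4532, and within set 1 they were 101 in CC-124. No share over all ids is set beside these counts, so only their change with the setting is read. Restricted new loci numbered 101 with the upper limit at 0.5 FPKM, 31 with it at 2, 33 with the lower limit at 0, 113 by strain means, and 65 to 72 with 1 library left out.

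For library measures, values are strain minus others in percentage points, all by exact permutation tests. Detection above 0.5 FPKM gave 2.56 for CC-124 (now past the threshold) and 1.47 for CC-1009 (no longer), and -0.331 for the gap between new and older ids in CC-124 (no longer). Detection above 5 FPKM gave 0.330 for CC-125, of the opposite sign, and gaps of -0.571 in CC-124 and -0.659 in CC-4533 (no longer) and 0.957 in CC-1690 (now past). Within sets, detection was -0.194 for CC-125, 0.194 for CC-4533 and -1.55 for CC-1690, the gap was 1.47 in CC-1009 and -0.596 in CC-4533, and the share of summed FPKM was 0.0544 for CC-125 and -0.0544 for CC-4533. With 1 library left out, CC-1009 detection ran from 1.99 to 2.31 and its gap from 1.72 to 2.11, both lost without its replicate 4. The gap ran from -1.997 to -1.62 in CC-124, lost without its replicate 1 or 3 or CC-1009 replicate 4, and from -2.13 to -1.58 in CC-4533, lost without its replicate 1, 2 or 4 or CC-1009 replicate 4. The difference in PSBW1 (Cre11.g801318) was -0.031 with quantile normalization. The causes were not tested. Copies that share reads, and rounding to 2 decimals, limit the values of the lowest loci.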
